A study of Mus musculus with 22 samples.

Results

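The transcriptome of neural stem cells was compared after 24 h of OSMI-1, an inhibitor of O-GlcNAc transferase, and after 24 h of vehicle. The response is described for genes outside a cell cycle list. The comparison used the 11 libraries of the inhibitor experiment, 5 with OSMI-1 and 6 with vehicle, of 22 in the series. The other 11, of an Ogt knockdown experiment with a lentiviral hairpin for 3 days, are set beside it near the end. The inhibitor table listed 24411 genes, of which 16572 had a read and 11349 passed the filter on low counts. A list of 298 S phase, G2 and mitosis genes was set aside, which left 11055 tested genes. Genes linked to division that the list lacks were kept, such as the replication-dependent histone Hist2h3c2 and the CDK inhibitor gene Cdkn1a.

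O-GlcNAc transferase (OGT) links N-acetylglucosamine to serine and threonine residues of nuclear, cytosolic and mitochondrial proteins, and the hydrolase O-GlcNAcase removes it. The sugar donor, UDP-GlcNAc, comes from the hexosamine pathway, which draws on glucose, glutamine, acetyl-CoA and UTP, so the modification is often described as a nutrient sensor. OSMI-1 is a cell-permeable small molecule that acts on the enzyme and not on its mRNA.

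All libraries came from primary neural stem cells of the adult mouse hippocampus, grown with EGF and bFGF on a poly-D-lysine and laminin coat. The OSMI-1 group received 12.5 µM OSMI-1 and the vehicle group the same volume of its solvent DMSO, both for 24 h before RNA was taken. The only dose and the only time in the comparison are these, and no label gives a genotype, strain, age or number of animals. The replicate numbers were 1 to 6 for vehicle and 1, 2, 4, 5 and 6 for OSMI-1, and OSMI-1 values are given in that order throughout. No label ties a library to its own animal or culture dish, so the p-values rest on the spread between these libraries, which may be technical.

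Recovered reads lay between 4522610 and 5927905 per library, apart from OSMI-1 4 with 12778845, and did not separate the groups (exact permutation test, two-sided, p = 0.253). No sample was removed or imputed. The ribosomal precursor Rn45s took 4.81 to 14.2% of reads, with 9.55 ± 3.20% in vehicle and 7.99 ± 1.54% in OSMI-1 (exact permutation test, two-sided, p = 0.353). With Rn45s left out, the 50 most abundant genes took 15.9 ± 0.226% of the remaining reads in vehicle and 17.3 ± 0.350% in OSMI-1 (p = 0.00216, the smallest that this exact permutation test can give). Principal component 1 (31% of variance) separated the groups, while vehicle 1 stood apart on component 2, and OSMI-1 5 and OSMI-1 6 lay at opposite ends of component 3 (-33.7 and 20.8, the others -8.65 to 8.89). Counts for the main lists are also given without vehicle 1, OSMI-1 4 (for its depth) and OSMI-1 5, called the 3 libraries below, and OSMI-1 6 was left out only in the fits that leave out each library in turn. Levels are deposited normalized counts, given as mean ± SD with n = 6 for vehicle and n = 5 for OSMI-1. Fold changes are log2 of OSMI-1 over vehicle on the log2(normalized count + 1) scale ± SE, and a gene rose or fell where its limma adjusted p was under 0.05.

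Markers of neural stem cells were present in every library. The intermediate filament gene Nes lay at 2704 to 3107 (median 2855) in vehicle and 2995, 2882, 3319, 3071 and 2867 in OSMI-1 (log2 0.07 ± 0.06, adjusted p = 0.48). The groups overlapped. Sox2, a stem cell transcription factor, was low and went from 61.8 ± 12.9 to 59 ± 12.3 (log2 -0.07 ± 0.20, adjusted p = 0.82). Of 17 stem cell markers, 11 passed the count filter and 6 (Msi1, Prom1, Hopx, Sox1, Sox3 and Sox21) did not. Of the measured ones 5 fell and 1 rose, against 11.2% and 11.9% of all tested genes outside the cell cycle list. The fallers included the glutamate transporter Slc1a3 (from 5318 ± 277 to 3455 ± 170.4, log2 -0.62 ± 0.06, adjusted p = 4.3e-08) and the intermediate filament Vim (from 6095 ± 660.4 to 4329 ± 594, log2 -0.50 ± 0.09, adjusted p = 0.00016), and the riser was the EGF receptor Egfr (from 775 ± 51.8 to 1112 ± 96.1, log2 0.52 ± 0.07, adjusted p = 1.7e-05). Fewer cells of a type and less RNA per cell cannot be told apart in bulk libraries.

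Markers of microglia, vessels and ependyma were sparse. None of 14 microglial and immune markers passed the count filter, and their summed level was 16.3 to 31 in vehicle and 16.7 to 34.4 in OSMI-1, with Aif1 and Trem2 at 0 throughout. Of 14 endothelial, mural and fibroblast markers 1 passed, the progenitor proteoglycan Cspg4 that is shared with pericytes. The summed level was 127 to 185 in vehicle and 133 to 178 in OSMI-1, and Cdh5 was at 0. Of 8 ependymal and choroid plexus markers 2 passed, and the sum of the 8 was 138 to 209.9 in vehicle and 72.8 to 112 in OSMI-1, with Tmem212 at 0. The one that fell was Foxj1, a regulator of multiciliated cells (from 126 ± 32.2 to 53.3 ± 10.9, log2 -1.20 ± 0.19, adjusted p = 6.6e-05), and the groups did not overlap. Of 23 neuronal markers 9 passed, and 5 fell and 1 rose, while the newborn neuron marker Dcx did not exceed 6.0 in any library. The 23 summed to 2091 to 2590 in vehicle and 2297 to 3148 in OSMI-1. Glial markers were not sparse. The sum of 22 astrocyte markers was 21561 to 24216 in vehicle and 20716 to 23859 in OSMI-1. Of 16 oligodendrocyte lineage markers 9 passed, and 1 rose and 1 fell (11.1% each). Their sum was 10811 to 13791 in vehicle and 11958.5 to 15878.5 in OSMI-1. The part of other cells in the results below was not tested.

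Outside the cell cycle list OSMI-1 changed 2557 of 11055 genes (23.1%), of which 1315 rose (11.9%) and 1242 fell (11.2%). Most changes were small. The median log2 fold change was 0.45 among genes that rose and -0.52 among genes that fell, and 78 genes (0.706%) rose and 169 (1.53%) fell by more than 2-fold. For 710 genes (6.42%) every OSMI-1 library lay above every vehicle library, and for 658 (5.95%) every one lay below. With the cell cycle list included, 2.59% of genes fell by more than 2-fold, and the libraries were all above for 6.27% and all below for 7.71%. A call was kept with each single library left out for 871 of the genes that rose and 840 of those that fell. In the cell cycle list itself 256 of 294 tested members fell and 2 rose (median log2 -0.91). It held 125 of the 294 genes that fell by more than 2-fold and none of the 78 that rose by as much. The median over all tested genes outside the list was 0.01, against which list medians below are read.

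Gene lists separated by direction. They were chosen with earlier results of these data known, so their shares are descriptions and not tests. Shares of list members are read against the 11.9% of all tested genes outside the cell cycle list that rose and the 11.2% that fell. This background is not matched for level. In the lowest of 5 equal groups by mean level 3.75% of genes rose and 6.97% fell, and in the highest 22% rose and 16% fell. A list of abundant genes may therefore exceed the background through its level alone, which was not tested. Lists of the lysosome, the vacuolar proton pump, the p53 pathway, hexosamine salvage, cholesterol synthesis and synaptic adhesion had more rising members than falling ones. Lists of the actin cytoskeleton, tubulins, splicing factors, the nuclear pore, ribosomal proteins and amino acid enzymes had more falling members than rising ones.

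**Figure D1:**
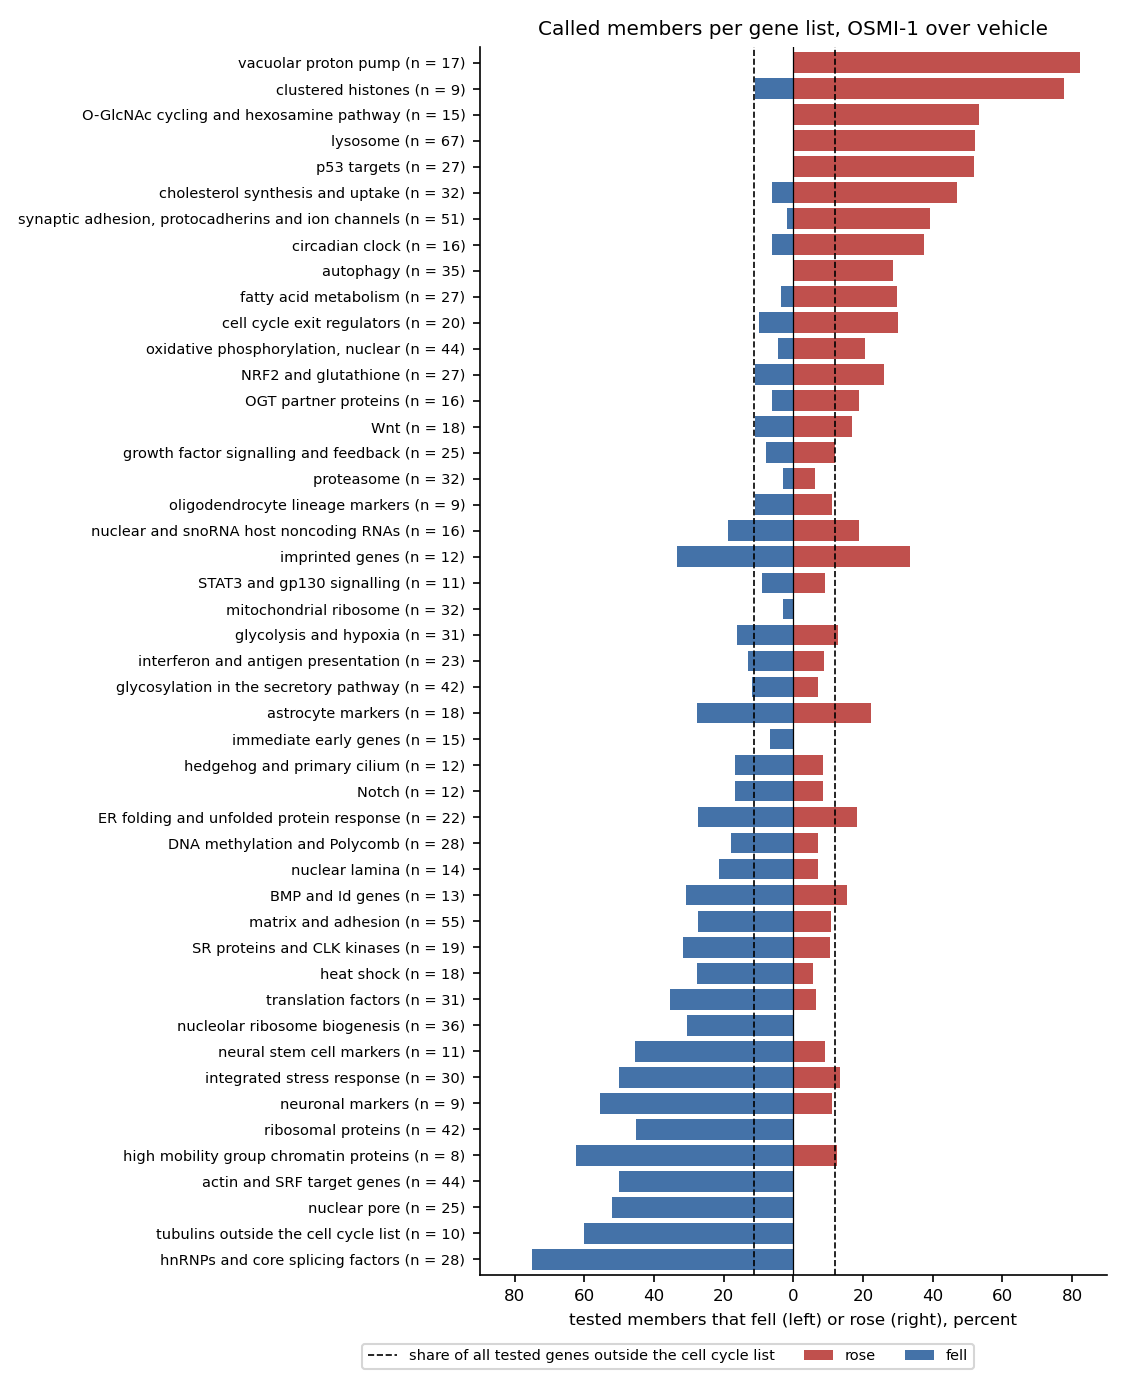
Percent of tested members called lower (blue, left) and higher (red, right) after OSMI-1 for each gene list with at least 8 tested members other than the cell cycle list, with the number tested in brackets. Dashed lines mark the shares over all 11055 tested genes outside the cell cycle list, 11.9% rose and 11.2% fell, and the vacuolar proton pump and the hnRNP list stand at the opposite ends.

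Several genes of O-GlcNAc and hexosamine metabolism rose. Of 15 members 8 rose and none fell (median log2 0.35), and 8 also rose without the 3 libraries. Among the 6 genes of UDP-GlcNAc synthesis 2 rose and none fell, with a median log2 of -0.02. Uap1l1, a homologue of the enzyme that makes UDP-GlcNAc, lay at 202 to 283 (median 215) in vehicle and 576, 556, 582, 564 and 636 in OSMI-1, a log2 fold change of 1.37 ± 0.10, adjusted p = 2.5e-10. Every OSMI-1 library stood far above the vehicle libraries. Gfpt2, which catalyses the first and rate-limiting step of the hexosamine pathway, lay at 808 to 992 (median 922) in vehicle and 1507, 1287, 1377, 1335 and 1454 in OSMI-1 (log2 0.61 ± 0.07, adjusted p = 9.3e-07). Here too the groups did not overlap, whereas its paralogue Gfpt1 went from 71.1 ± 18.9 to 65.5 ± 8.74 (log2 -0.09 ± 0.19, adjusted p = 0.78). Enzymes that salvage or break down amino sugars made up most of the rest, with 5 of 6 higher. Amdhd2, which deacetylates GlcNAc-6-phosphate, went from 221 ± 28.7 to 356 ± 35.4 (log2 0.69 ± 0.11, adjusted p = 4.9e-05). Gnpda1, which returns glucosamine-6-phosphate to glycolysis, went from 793 ± 60.4 to 1093 ± 92.4 (log2 0.46 ± 0.08, adjusted p = 9.5e-05), and the GlcNAc epimerase Renbp from 118 ± 33.1 to 204 ± 24.9 (log2 0.81 ± 0.16, adjusted p = 0.00047). Ogt itself lay at 404 to 506 (median 454) in vehicle and at 632, 563, 568.03, 579 and 658 in OSMI-1 (log2 0.40 ± 0.08, adjusted p = 0.001), with no overlap. The O-GlcNAcase gene, listed as Mgea5, overlapped between the groups (log2 0.13 ± 0.12, adjusted p = 0.47).

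Lysosomal genes rose, and no other list had as many rising members. The lysosome degrades material delivered by endocytosis and autophagy, and many of its genes carry a palindromic promoter element, the CLEAR motif, that is bound by the transcription factors TFEB and TFE3. The 7-base core TCACGTG of that element contains the E-box CACGTG and was searched on both strands in RefSeq promoter windows of GRCm38.p6, from 250 bases before to 50 after each start site. A window existed for 63 of the 84 tested genes of the lysosome and proton pump lists. The motif was present in 24.7% of their 77 windows, in 33.3% of the 42 windows of their 35 genes that rose, and in 6.08% of the 11463 windows of all tested genes outside the cell cycle list. Among all those genes it was present in 8.55% of windows of genes that rose and 3.82% of windows of genes that fell. Windows around the motif are shown for 5 genes that rose and hold it, with the motif in capitals and 10 bases on each side:
Dpp7: cgccagactaTCACGTGatgctgcccc
Ctsd: cgcccgcgtcTCACGTGacccgttgag
Ctsa: gagcaaactgTCACGTGatgcagatgc
Glb1: tgcttctgagTCACGTGgcctacagag
Atp6v0b: ggtcggcgcaTCACGTGcgccggtcag

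These windows lie at chr2:25356390-25356416 (minus strand), chr7:142387910-142387936 (minus strand), chr2:164833750-164833776 (plus strand), chr9:114401019-114401045 (plus strand) and chr4:117887332-117887358 (minus strand), each on the strand of its gene. The first base of the motif is at -74, -99, -13, -49 and -19 from the start site. A match is a description of the sequence and does not show that a factor binds there. The mRNA of Tfe3 went from 301 ± 37.6 to 352 ± 30.7 (log2 0.23 ± 0.10, adjusted p = 0.11), and Tfeb was below the count filter in both groups.

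Of 67 tested lysosomal genes 35 rose, 52.2% against the 11.9% of the background, and none fell. Their median log2 fold change was 0.33, and 32 rose without the 3 libraries. By functional class, 8 of 13 proteases, 10 of 24 glycosidases and sulfatases, 6 of 11 lipid hydrolases and activators and 11 of 17 membrane proteins rose, and neither of the transcription factor genes did. Dpp7, a lysosomal dipeptidyl peptidase, lay at 103 to 150.3 (median 138) in vehicle and at 343, 354, 315, 291 and 316 in OSMI-1 (log2 1.27 ± 0.11, adjusted p = 1.6e-08). The lowest OSMI-1 library was well above the highest vehicle library. The aspartic protease gene Ctsd lay at 6318 to 7379.6 (median 7080.2) and 12964, 13898, 13069.9, 11182 and 10433 (log2 0.83 ± 0.07, adjusted p = 1.4e-08), with OSMI-1 5 and 6 lower than the other OSMI-1 libraries but above every vehicle library. Tpp1, a tripeptidyl peptidase, went from 1420.2 ± 108 to 2461 ± 254 (log2 0.79 ± 0.07, adjusted p = 3.6e-08). Among sugar-cleaving enzymes, the mannosidase Man2b1 went from 481 ± 55.4 to 773 ± 93.6 (log2 0.68 ± 0.09, adjusted p = 7.6e-06) and the galactosidase Glb1 from 740.5 ± 44.3 to 1096 ± 123 (log2 0.56 ± 0.08, adjusted p = 1.4e-05).

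Npc2, which carries cholesterol out of the lysosome, had tight groups, 1143 to 1257 (median 1177) in vehicle and 2012, 2053, 1958, 1879 and 2068 in OSMI-1 (log2 0.75 ± 0.06, adjusted p = 3.4e-09). Ppt1, which removes palmitate from proteins, went from 1257 ± 58.9 to 1839.9 ± 149 (log2 0.55 ± 0.07, adjusted p = 2.2e-06). At the lysosomal membrane the calcium channel gene Mcoln1 lay at 429 to 569 (median 543) and 905, 1145, 1053, 876 and 963 (log2 0.91 ± 0.09, adjusted p = 5.8e-08). The tetraspanin gene Cd63 lay at 2552 to 2829 (median 2629) and 3589.8, 4617, 5135, 5078 and 5039 (log2 0.82 ± 0.08, adjusted p = 4.9e-08), with OSMI-1 1 the lowest of the treated libraries. Neither gene overlapped between the groups. The abundant membrane glycoprotein gene Lamp1 went from 1897 ± 322 to 2925 ± 419 (log2 0.63 ± 0.11, adjusted p = 0.0001), also with no overlap. Uap1l1 and Dpp7, both among the largest rises, are neighbours on GRCm38 chromosome 2, where GENCODE M21 places Dpp7 at chr2:25352276-25356359 and Uap1l1 at chr2:25359889-25365682, both on the minus strand.

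The vacuolar proton pump, the ATPase that acidifies lysosomes, rose more uniformly than any other list with at least 8 tested members. Of 17 tested subunit and accessory genes 14 rose (82.4%) and none fell, with a median log2 of 0.40, and 13 rose without the 3 libraries. All 8 genes of the cytosolic V1 sector and 6 of 9 genes of the membrane V0 sector and accessory proteins were higher. Atp6v0b, a proteolipid of the V0 ring, lay at 1412 to 1622 (median 1497) in vehicle and 2417, 2822, 2809, 2759.9 and 3189 in OSMI-1 (log2 0.89 ± 0.07, adjusted p = 2.3e-09). The accessory gene Atp6ap1 lay at 2358 to 3103 (median 2659.8) and 4782, 4572, 4486, 3898 and 4259 (log2 0.70 ± 0.07, adjusted p = 1.6e-07), and the V1 stalk gene Atp6v1e1 at 1046 to 1205 (median 1162) and 1709.7, 1715, 1740.2, 1600.1 and 1830.5 (log2 0.58 ± 0.06, adjusted p = 4.5e-07). Each of the 3 had all OSMI-1 libraries above all vehicle libraries. Of 35 autophagy genes 10 rose (28.6%) and none fell (median 0.17), and 7 rose without the 3 libraries. They included the autophagosome membrane proteins Map1lc3b (from 1621 ± 181 to 2341 ± 173, log2 0.53 ± 0.08, adjusted p = 1.8e-05) and Gabarap (from 1088 ± 48.5 to 1489 ± 136, log2 0.45 ± 0.07, adjusted p = 5.5e-05), and the initiating kinase Ulk2 (from 43.6 ± 10.1 to 78.5 ± 18.8, log2 0.83 ± 0.21, adjusted p = 0.0057).

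**Figure D2:**
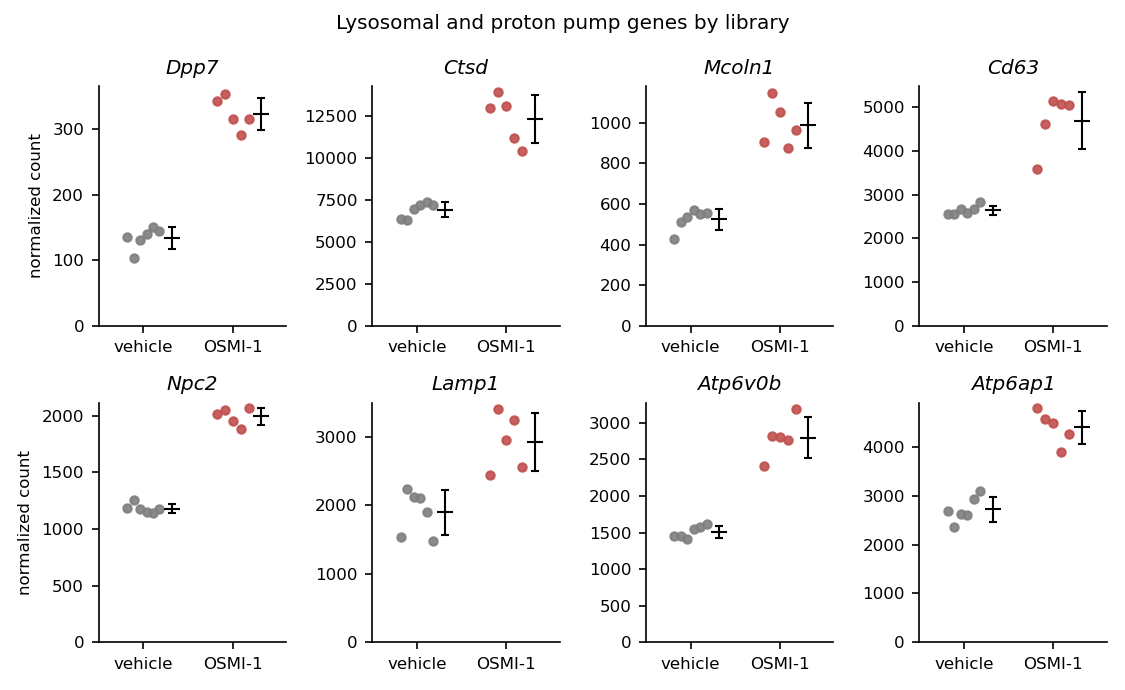
Normalized counts (linear axis from 0) of 6 lysosomal genes and 2 proton pump genes, 1 point per library, with mean and SD to the right of each group (n = 6 vehicle, n = 5 OSMI-1). In each panel the OSMI-1 points lie above the vehicle points, and for Dpp7 the groups are 103 to 150.3 and 291 to 354.

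Actin cytoskeleton genes fell. Many of them are targets of serum response factor (SRF), which binds a 10-base element, the CArG box, and is activated when free actin monomers become scarce. The CArG box was searched on both strands of the same promoter windows. Among all tested genes outside the cell cycle list, windows with the box made up 1.38% for genes that fell. The share was 0.804% for genes that rose and 1.29% for genes not called. The actin and SRF target list was chosen to include SRF targets, so a high share of boxes there may follow from that choice. The box was present in 18.4% of the 49 windows of 39 genes of that list and in 20.8% of the 24 windows of its 19 genes that fell. It was present in 1.24% of windows of all tested genes outside the cell cycle list. All 5 falling genes of the actin and SRF target list with the box are Actg1, Cnn2, Fhl1, Myl9 and Vcl, and 4 of their windows are shown, with the box in capitals and 10 bases on each side:
Cnn2: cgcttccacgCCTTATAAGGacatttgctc
Myl9: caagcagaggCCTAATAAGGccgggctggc
Actg1: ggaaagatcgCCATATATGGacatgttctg
Vcl: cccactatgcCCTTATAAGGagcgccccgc

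On GRCm38.p6 they lie at chr10:79988534-79988563 (plus strand), chr2:156775293-156775322 (plus strand), chr11:120348566-120348595 (minus strand) and chr14:20929161-20929190 (plus strand), each on the strand of its gene, with the box starting at -56, -161, -90 and -227 from the start site. Of 44 tested genes of the list 22 fell (50%, against 11.2% of the background) and none rose, with a median log2 of -0.34, and 23 fell without the 3 libraries and 20 without OSMI-1 6. The share was 10 of 14 among calponins, tropomyosins and contractile proteins, 9 of 22 among actin regulators and adhesion proteins, and 3 of 8 among SRF, its cofactors and YAP targets. The calponin gene Cnn2, whose product binds actin filaments, had the largest fall among genes with a mean of at least 100 in 1 of the groups, no overlap and a call in every leave-one-out fit, 233 to 329.8 (median 304) in vehicle and 44.7, 84.1, 72.3, 70.4 and 42.4 in OSMI-1 (log2 -2.25 ± 0.17, adjusted p = 5.6e-10). Myosin light chain 9 (Myl9) lay at 144 to 222 (median 176) and 72, 58.8, 48.6, 57.3 and 30.9 (log2 -1.73 ± 0.18, adjusted p = 2.4e-07). OSMI-1 6 was the lowest library for both, and neither gene overlapped between the groups.

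The tropomyosin gene Tpm4 lay at 2094 to 2441 (median 2278) in vehicle and 1137, 1234, 1169, 1276 and 953 in OSMI-1 (log2 -0.98 ± 0.07, adjusted p = 1.2e-09). The cytoplasmic actin genes fell less. Actb lay at 44225 to 56836 (median 53026) and 40967, 39323, 34319.8, 30653 and 31801 (log2 -0.56 ± 0.08, adjusted p = 2.8e-05) with no overlap, and Actg1 went from 19001 ± 1997 to 14377 ± 2239.8 (log2 -0.41 ± 0.09, adjusted p = 0.0017) with overlapping groups. In both, OSMI-1 5 and 6 were the lowest libraries. Vcl, which links actin to adhesion sites, went from 720.4 ± 42.1 to 542 ± 61.1 (log2 -0.41 ± 0.08, adjusted p = 0.00075), the filament cross-linker Flna from 1384 ± 170.3 to 940.2 ± 71.3 (log2 -0.55 ± 0.08, adjusted p = 3.8e-05), and Ezr, which ties filaments to the membrane, from 237 ± 29.1 to 137 ± 20.7 (log2 -0.79 ± 0.12, adjusted p = 4.7e-05). The secreted matricellular gene Ctgf lay at 557 to 778 (median 705) and 437, 436, 441, 364 and 194 (log2 -0.92 ± 0.16, adjusted p = 0.00013), with OSMI-1 6 far below the others. Srf mRNA was low and did not separate the groups (from 34.1 ± 11.8 to 34.2 ± 11.1, log2 0.02 ± 0.26, adjusted p = 0.97). Of 10 tubulins outside the cell cycle list 6 fell and none rose (median -0.39), led by Tubb2a at 7882 to 8629 (median 8363) in vehicle and 5969, 5944, 5964, 5064 and 5189 in OSMI-1 (log2 -0.57 ± 0.06, adjusted p = 3e-07). Its groups did not overlap.

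**Figure D3:**
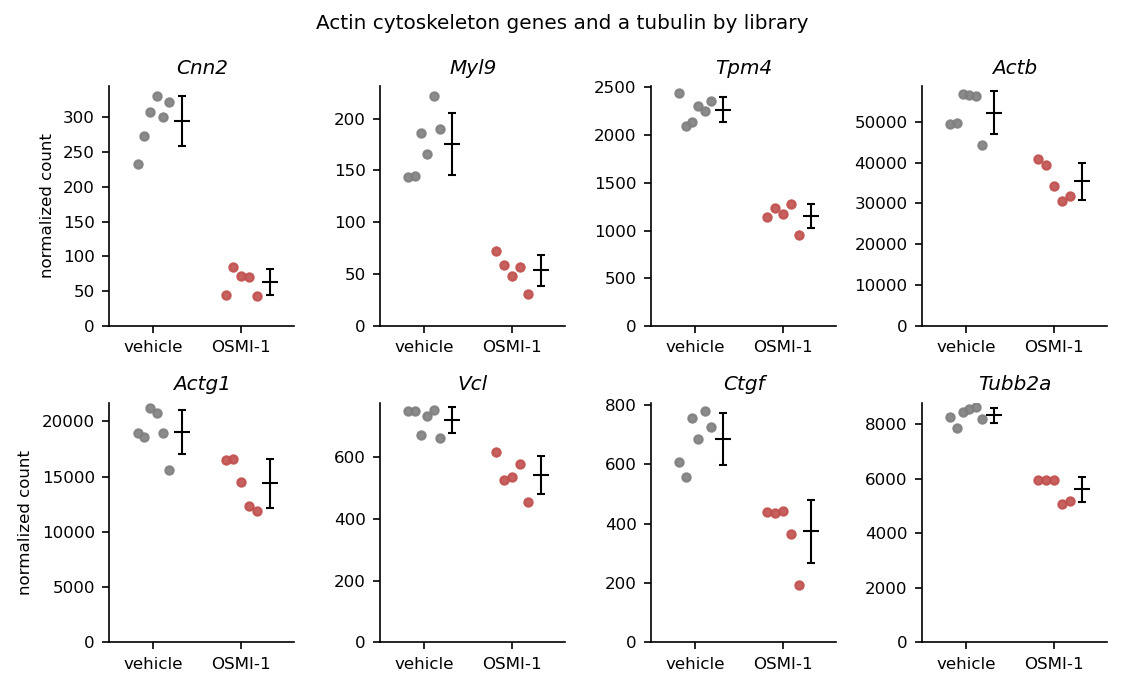
Normalized counts (linear axis from 0) of 7 genes of the actin and SRF target list and the tubulin Tubb2a, 1 point per library, with mean and SD to the right of each group (n = 6 vehicle, n = 5 OSMI-1). OSMI-1 points lie below the vehicle points in every panel except Actg1, where the groups touch, and the mean of Cnn2 goes from 294 to 62.8.

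Of 6 tested noncoding RNAs of nuclear bodies and chromatin 3 rose and none fell, and 2 rose without the 3 libraries. Malat1, a long noncoding RNA of nuclear speckles at chr19:5795690-5802672 on GRCm38, had the largest rise under the same conditions, 15431 to 18285 (median 16597) in vehicle and 46370.5, 39264, 36824, 64527 and 46394 in OSMI-1 (log2 1.46 ± 0.10, adjusted p = 2.3e-10). OSMI-1 5 was the highest library, and no libraries overlapped. The share of reads other than Rn45s taken by the 50 most abundant genes was also higher in OSMI-1, as given above. At these levels Malat1 itself counts toward that share, so the share is not separate from its rise. The part of one in the other was not tested. Kcnq1ot1, an antisense RNA of an imprinted domain, went from 255 ± 43.2 to 449 ± 100.5 (log2 0.80 ± 0.13, adjusted p = 7.4e-05). The paraspeckle RNA Neat1 went from 39.2 ± 4.04 to 59.3 ± 14.6 (log2 0.56 ± 0.20, adjusted p = 0.044), a call kept only where vehicle 6 or OSMI-1 6 was left out and lost with any other library left out (adjusted p up to 0.142). In contrast, 3 of 10 snoRNA host genes fell and none rose, Snhg5 among them (from 49.4 ± 10.8 to 23 ± 3.56, log2 -1.05 ± 0.23, adjusted p = 0.0017). With strand of counting not stated, an antisense RNA and its partner cannot be told apart.

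Histone genes of the clusters that appear in poly(A) libraries rose, while chromatin proteins of the high mobility group fell. Of 18 cluster histones 9 passed the count filter, 7 of which rose and 1 fell (median 1.03). Near-identical copies may share reads, so single histone genes are uncertain. Hist1h2bc lay at 930.3 to 1135 (median 1007) in vehicle and 1875, 2057, 1788, 2438 and 2283 in OSMI-1 (log2 1.03 ± 0.08, adjusted p = 2e-09), Hist2h2aa1 went from 168 ± 18.2 to 371 ± 31.9 (log2 1.14 ± 0.11, adjusted p = 2.7e-08) and the linker histone Hist1h1c from 103 ± 11.9 to 219.8 ± 28.6 (log2 1.08 ± 0.13, adjusted p = 1.3e-06). Another cluster histone gene, Hist2h3c2, which was outside that list, fell from 383 ± 122 to 121 ± 12.9 (log2 -1.61 ± 0.16, adjusted p = 6e-08). Of 8 high mobility group and partner genes 5 fell and 1 rose. Hmgn2, a nucleosome-binding protein, lay at 6478 to 7970.4 (median 7023) and 2556, 2547, 2529.9, 3065 and 2994 (log2 -1.37 ± 0.07, adjusted p = 1.9e-12), and Hmgb3 went from 1159 ± 101 to 631 ± 30.4 (log2 -0.87 ± 0.07, adjusted p = 8e-09). Both were lower in every OSMI-1 library. The one that rose was Hmga1, a low gene (from 27.8 ± 7.86 to 57.7 ± 20.4, log2 1.00 ± 0.26, adjusted p = 0.0061). Lmnb2, a B-type lamin of the nuclear envelope, fell from 209 ± 25.4 to 125 ± 17.3 (log2 -0.74 ± 0.13, adjusted p = 0.00012).

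RNA-binding and nuclear pore genes fell. Of 28 hnRNP and core splicing genes 21 fell (75%) and none rose (median -0.37), and 15 fell without the 3 libraries. Hnrnpa1, which packages pre-mRNA and regulates exon choice, lay at 3010.3 to 3274 (median 3089) in vehicle and 1581, 1588, 1444, 1694 and 1685 in OSMI-1 (log2 -0.96 ± 0.06, adjusted p = 4.5e-11). The 2 ranges were narrow and far apart. Hnrnph1 went from 1106 ± 58.6 to 630.1 ± 54.8 (log2 -0.81 ± 0.07, adjusted p = 2.4e-08). Of 12 SR proteins, splicing factors that promote exon inclusion, 6 fell and none rose, with Srsf3 at 1559.7 to 1898 (median 1817) in vehicle and 1013, 1054, 777, 1063 and 1001 in OSMI-1 (log2 -0.85 ± 0.08, adjusted p = 7.5e-08). Of 25 nucleoporins 13 fell (52%) and none rose (median -0.28), also 13 without the 3 libraries. Nup62, of the central channel of the pore, went from 678 ± 78.4 to 391 ± 99 (log2 -0.81 ± 0.12, adjusted p = 2.2e-05), with OSMI-1 4 the highest OSMI-1 library at 562, and the scaffold subunit Nup37 went from 102 ± 13.3 to 50.1 ± 8.38 (log2 -1.02 ± 0.17, adjusted p = 7e-05). Several nucleoporins, Nup62 among them, are known carriers of O-GlcNAc.

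Genes of the ribosome and of translation fell by small amounts. Of 42 ribosomal protein genes 19 fell (45.2%) and none rose (median -0.24). Without OSMI-1 1 the number was 12, and without the 3 libraries it was 15. Rpl3, a large subunit protein, lay at 3586 to 4266 (median 4173) in vehicle and 2566, 3033, 2938, 2681 and 2714 in OSMI-1 (log2 -0.54 ± 0.07, adjusted p = 2e-06), and Rpsa of the small subunit went from 3737 ± 477 to 2463 ± 217 (log2 -0.60 ± 0.08, adjusted p = 1.1e-05). Rps27a, which encodes ubiquitin fused to a ribosomal protein, lay at 1111 to 1715 (median 1567) in vehicle and 508, 501, 580.1, 712 and 670.1 in OSMI-1 (log2 -1.30 ± 0.11, adjusted p = 8.6e-09). Ribosomal protein genes have many processed copies, so their counts depend on how shared reads were assigned. Of 36 nucleolar ribosome biogenesis genes 11 fell (30.6%) and none rose (median -0.18), 7 without the 3 libraries, with the nucleolar chaperone Npm1 going from 2398 ± 227 to 1543 ± 148 (log2 -0.64 ± 0.08, adjusted p = 1.6e-06). Of 31 translation factors 11 fell (35.5%) and 2 rose (6.45%, or 1 gene without vehicle 3, vehicle 5, OSMI-1 5 or OSMI-1 6). Without the 3 libraries or without vehicle 4, 7 fell. Eif4ebp1, an inhibitor of cap-dependent translation, went from 786 ± 58.6 to 549 ± 70.9 (log2 -0.52 ± 0.09, adjusted p = 0.0001). Subunits of the mitochondrial ribosome had a median of -0.01, and of 32 only Mrps22 fell (from 336 ± 27.8 to 276 ± 41.7, log2 -0.29 ± 0.10, adjusted p = 0.046), a call kept only with vehicle 2, vehicle 3, OSMI-1 1 or OSMI-1 6 left out.

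The targets of the integrated stress response, in which the factor ATF4 raises genes of amino acid supply, were split by role. Of 10 enzymes of amino acid and folate metabolism 9 fell and none rose (median -0.64). Mthfd2, a mitochondrial folate enzyme, lay at 478 to 534 (median 512) in vehicle and 242, 269, 243, 215 and 202 in OSMI-1 (log2 -1.13 ± 0.09, adjusted p = 2.9e-09). Psat1, of serine synthesis, lay at 3367 to 3813 (median 3475) and 2082, 2288, 1983, 1847 and 1844 (log2 -0.81 ± 0.07, adjusted p = 3.4e-09), and the asparagine synthetase Asns at 1451 to 1965 (median 1683) and 1083, 961, 1099, 926 and 829.3 (log2 -0.78 ± 0.09, adjusted p = 4.5e-07). None of the 3 overlapped between the groups. Phgdh, the first enzyme of serine synthesis, went from 5755 ± 251 to 4199 ± 364 (log2 -0.46 ± 0.06, adjusted p = 1.1e-05), and Atf4 itself from 686 ± 74.3 to 532 ± 70.8 (log2 -0.37 ± 0.10, adjusted p = 0.0064). Among 12 regulators 3 rose and 2 fell, the rises being Ddit3, a factor of the terminal stress response (from 59.4 ± 7.5 to 104 ± 25.9, log2 0.76 ± 0.18, adjusted p = 0.0033), the stress sensor Sesn2 (from 1062 ± 70.3 to 1522 ± 180.0, log2 0.51 ± 0.08, adjusted p = 3.1e-05) and the lipoprotein receptor Vldlr (from 240.3 ± 31.7 to 316 ± 30.2, log2 0.40 ± 0.11, adjusted p = 0.0086), the last not called without the 3 libraries. Of 8 amino acid transporters 4 fell (50%) and 1 rose (12.5%, near the background of 11.9%). The riser was Slc3a2, the shared heavy chain of several transporters (from 5220.1 ± 206 to 7619.8 ± 700.5, log2 0.54 ± 0.06, adjusted p = 1.3e-06). Bcat1, which transaminates branched-chain amino acids and is outside these lists, fell from 203 ± 46.8 to 69.8 ± 17.9 (log2 -1.53 ± 0.18, adjusted p = 9.5e-07).

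Targets of p53 rose, 14 of 27 (51.9%), and none fell (median 0.27), and 13 rose without the 3 libraries. The CDK inhibitor gene Cdkn1a spread little within OSMI-1, 5883 to 6759 (median 6277) in vehicle and 9230.2, 9068, 8813, 9064 and 9011 in OSMI-1 (log2 0.52 ± 0.06, adjusted p = 4.1e-07). Mdm2, the ubiquitin ligase of p53, lay at 681 to 829.2 (median 800.2) and 1085, 1064, 1122, 1042 and 1025 (log2 0.46 ± 0.07, adjusted p = 4.5e-05), and the antiproliferative gene Btg2 went from 369 ± 16.2 to 541 ± 40.3 (log2 0.55 ± 0.08, adjusted p = 2.7e-05). All 3 were higher in each OSMI-1 library. Trp53cor1, a noncoding RNA next to Cdkn1a that p53 induces and that was in no list, went from 88.5 ± 18 to 195 ± 18.5 (log2 1.16 ± 0.15, adjusted p = 6.3e-06). Of 20 regulators of cell cycle exit 6 rose (30%) and 2 fell (1 without vehicle 4 or OSMI-1 4). The share that fell, 10%, was near the background of 11.2%. The PI3 kinase inhibitor gene Pik3ip1 lay at 191 to 261 (median 240.0) in vehicle and 436, 418, 453, 381 and 426 in OSMI-1 (log2 0.85 ± 0.10, adjusted p = 7.4e-07).

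Cholesterol synthesis genes rose by small amounts. Of 20 enzymes 12 rose (60%) and none fell (median 0.27), and 13 rose without the 3 libraries. Tm7sf2, a sterol reductase, lay at 245 to 289 (median 269) in vehicle and 467, 451, 450.1, 415 and 496 in OSMI-1 (log2 0.76 ± 0.09, adjusted p = 7.4e-07), Hmgcs1, an early enzyme, at 3538 to 3939.8 (median 3604) and 4883, 4798, 4159, 4679 and 4756 (log2 0.34 ± 0.06, adjusted p = 0.00025). Neither overlapped between the groups. Insig1, a feedback inhibitor of the pathway, lay at 1045 to 1302 (median 1128) and 1873, 1873, 1683, 1715 and 1779 (log2 0.64 ± 0.07, adjusted p = 5.1e-07). The sterol exporter Abca1, in contrast, fell from 194 ± 17.7 to 104 ± 22.1 (log2 -0.92 ± 0.14, adjusted p = 3.6e-05), as did the lipogenic factor Srebf1 (from 834 ± 48.4 to 582 ± 78.8, log2 -0.52 ± 0.08, adjusted p = 6.6e-05). Its relative Srebf2, the main activator of cholesterol genes, went from 686 ± 136 to 589 ± 95.8 (log2 -0.21 ± 0.13, adjusted p = 0.23). Of 13 genes of fatty acid oxidation and PPAR targets 6 rose and 1 fell, among them Cpt1a, which admits fatty acids to mitochondria (from 126 ± 19.95 to 239 ± 59.6, log2 0.90 ± 0.16, adjusted p = 0.00018), and the coactivator Ppargc1a (from 391 ± 45.5 to 588 ± 51.3, log2 0.59 ± 0.09, adjusted p = 4.9e-05). Of 44 nuclear genes of oxidative phosphorylation 9 rose (20.5%) and 2 fell (4.55%), with a median of 0.13, but 3 rose without the 3 libraries and 15 without OSMI-1 1.

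Genes of synaptic adhesion and excitability rose in these cells. Of 51 tested members 20 rose (39.2%; 16 without the 3 libraries) and 1 fell (median 0.20), with 13 of 29 protocadherins and adhesion molecules and 7 of 22 channels and receptors higher. Another 21 of the 72 members were below the count filter. The AMPA receptor gene Gria3 lay at 609.9 to 766 (median 664) in vehicle and 1443, 1279, 1131, 1146 and 1429.5 in OSMI-1 (log2 0.94 ± 0.08, adjusted p = 1.6e-08). Gria4 of the same receptor family went from 443 ± 50.04 to 718 ± 71.6 (log2 0.70 ± 0.09, adjusted p = 4.8e-06). The X-linked protocadherin Pcdh11x lay at 329 to 544 (median 408) and 987, 684, 716, 1219 and 1219 (log2 1.18 ± 0.15, adjusted p = 2.6e-06), with OSMI-1 2 and 4 lower than the other 3 OSMI-1 libraries. Pcdh9 went from 212 ± 27.6 to 384 ± 53.7 (log2 0.85 ± 0.11, adjusted p = 5.5e-06), Pcdh19 from 79.9 ± 27.4 to 176 ± 32.6 (log2 1.18 ± 0.20, adjusted p = 0.00013) and the cyclic nucleotide phosphodiesterase Pde1c from 152 ± 18.6 to 351 ± 36.1 (log2 1.20 ± 0.11, adjusted p = 3.8e-08). Each of these 6 genes was higher in all OSMI-1 libraries. The gene that fell was Nlgn3, a postsynaptic adhesion protein (from 189 ± 19.8 to 128 ± 26.7, log2 -0.59 ± 0.14, adjusted p = 0.0031). Neuronal marker genes did not rise with this list, as 5 of the 9 measured fell and 1 rose, Calb2 being among the falls (from 97.9 ± 11.6 to 35.2 ± 5.21, log2 -1.45 ± 0.17, adjusted p = 1.1e-06).

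Many genes of that kind are long, and gene span was compared over 11003 tested genes with a GENCODE M21 annotation, split into 5 equal groups. In the group with the longest spans (79.9 kb or more, median 140 kb) 18.5% of genes rose and 7.77% fell. In the other 4 groups 9.14 to 11.6% rose and 10.8 to 13% fell. The pattern was also present among well expressed genes, since in the highest of 3 equal groups by mean level 36.7% of genes with the longest spans rose, against 14.9 to 18.2% in the other span groups. The share of genes called grew with level as well, from 3.75% rising in the lowest of 5 level groups to 22% in the highest, so both are given as descriptions. Promoter GC content showed no such gradient, with 10.2 to 12.6% of genes rising across its 5 groups. The motif TTTGAA was present in promoter windows of 43.4% of genes of the cell cycle list that fell. Outside that list it was present for 17.2% of genes that fell, 12.1% of genes that rose and 12.9% of genes not called.

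**Figure D4:**
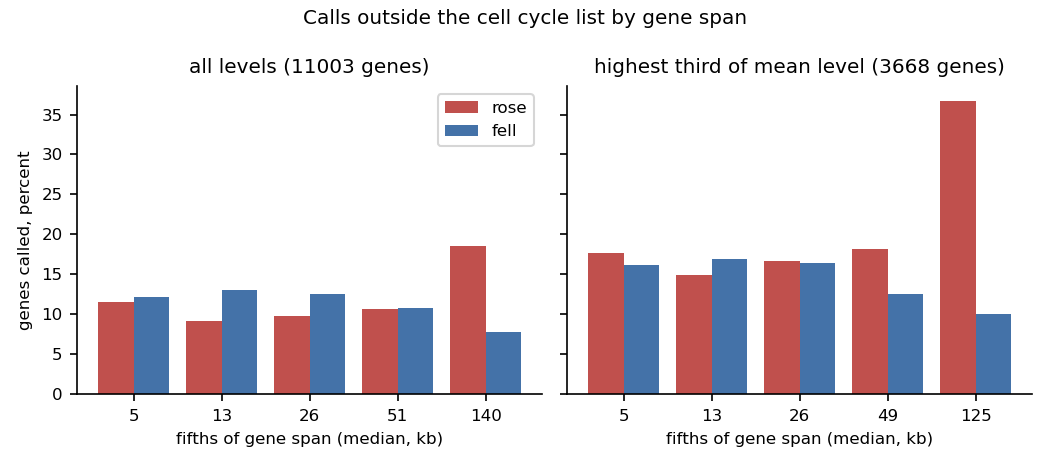
Percent of tested genes outside the cell cycle list that rose (red) or fell (blue) in 5 equal groups of gene span, labelled with the median span in kb, for all 11003 annotated genes (left) and for the highest of 3 equal groups by mean level (right). The red bar of the longest group is 18.5% on the left and 36.7% on the right.

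Matrix and adhesion genes fell more often than they rose, and the share that rose (10.9%) was near the background of 11.9%. Of 55 tested matrix and adhesion genes 15 fell (27.3%) and 6 rose (median -0.10), and 13 fell without the 3 libraries. The number that rose was 3 without vehicle 1, OSMI-1 2, OSMI-1 4 or OSMI-1 5 and 10 without OSMI-1 6. The laminin gene Lama4 went from 507 ± 56.5 to 333 ± 59.4 (log2 -0.62 ± 0.11, adjusted p = 0.00027) and the basement membrane collagen Col4a2 from 128 ± 28.3 to 64.2 ± 13.9 (log2 -0.98 ± 0.18, adjusted p = 0.00029). The proteoglycan Vcan rose, 209 to 375 (median 279) in vehicle and 628, 573, 465, 525 and 566 in OSMI-1 (log2 0.97 ± 0.12, adjusted p = 1.3e-06). Among genes in no list, Pcolce, which enhances collagen maturation, lay at 985 to 1164 (median 1048) and 399, 341, 346, 307 and 297 (log2 -1.64 ± 0.08, adjusted p = 1.5e-12), with a wide gap between the groups, and the collagen Col16a1 went from 181 ± 13.5 to 64.8 ± 8.44 (log2 -1.48 ± 0.13, adjusted p = 1.6e-08). In the list of growth factor signalling and feedback 3 of 25 genes rose (12%) and 2 fell (8%), shares near or below the background. The FGF receptor Fgfr3 lay at 152 to 186 (median 172) and 72.9, 76, 74.9, 48.9 and 50.4 (log2 -1.41 ± 0.15, adjusted p = 2.9e-07), whereas Egfr rose, as given above. Among genes of BMP signalling 4 of 13 fell (30.8%) and 2 rose (1 without vehicle 4 or OSMI-1 2). The share that rose, 15.4%, was near the background of 11.9%. The falls included the inhibitor of differentiation Id1 (from 156 ± 13.2 to 95 ± 10.9, log2 -0.71 ± 0.13, adjusted p = 0.00023) and the pseudoreceptor Bambi (from 112 ± 14.4 to 60.1 ± 14.1, log2 -0.91 ± 0.18, adjusted p = 0.00047).

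Of 16 clock genes 6 rose (37.5%) and 1 fell (6.25%), with a median of 0.36. Of all tested genes outside the cell cycle list 11.9% rose and 11.2% fell. The fall was that of the repressor Nfil3 (from 26.7 ± 7.64 to 14.2 ± 6.01, log2 -0.92 ± 0.32, adjusted p = 0.04). Nfil3 was not called without vehicle 2, 3, 4 or 6 or OSMI-1 2, 5 or 6. The call was also lost with edgeR, without the filter, with the replicate block and with the Rn45s share as a covariate. The nuclear receptor Rora lay at 88.9 to 138 (median 112) in vehicle and 228, 213, 175, 228 and 238 in OSMI-1 (log2 0.93 ± 0.13, adjusted p = 1.4e-05), the output factor Tef at 111 to 158 (median 124) and 211, 229, 210.4, 237 and 269 (log2 0.86 ± 0.12, adjusted p = 1e-05), and Bhlhe40, a repressor, went from 438 ± 41.6 to 631 ± 32.8 (log2 0.53 ± 0.08, adjusted p = 5.9e-05). None of the 3 overlapped. Among 12 imprinted genes 4 rose (33.3%, or 2 genes without OSMI-1 1) and 4 fell (33.3%). Mest lay at 3434 to 4094 (median 3770.2) and 1813, 1634, 1521, 1503 and 1529 (log2 -1.23 ± 0.07, adjusted p = 6.1e-12). The iron storage gene Ftl1 lay at 15823 to 18759 (median 16418) and 21907, 24252, 24583, 24442 and 25278 (log2 0.53 ± 0.06, adjusted p = 1.2e-06). It was one of 7 genes of the NRF2 and glutathione list of 27 that rose (25.9%, or 4 genes without the 3 libraries). In that list 3 fell (11.1%), a share near the background. The calcium-binding protein S100b, an astrocyte marker, rose from 58.3 ± 13.7 to 142 ± 33.3 (log2 1.28 ± 0.19, adjusted p = 2.5e-05). But of 18 astrocyte markers 4 rose (22.2%) and 5 fell (27.8%, or 3 genes without the 3 libraries), and Gfap was below the count filter.

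Other named genes with the largest changes fell in no list. The rises were Ctif, a translation factor of the nuclear cap complex (from 84.1 ± 17.8 to 204 ± 46.5, log2 1.26), the synaptic vesicle protein Synpr (from 42.4 ± 10.1 to 101 ± 24.5, log2 1.23), Ankrd12 (from 73.8 ± 15.8 to 163 ± 26.2, log2 1.14), Mroh1 (from 70.4 ± 24.3 to 141 ± 10.4, log2 1.10) and the diacylglycerol kinase Dgkk (from 145 ± 34.9 to 299 ± 29.1, log2 1.06). The falls were the sodium pump regulator Fxyd6 (from 142 ± 7.8 to 40.7 ± 6.67, log2 -1.80), the kinase Stk32b (from 105 ± 13.1 to 38.5 ± 17.2, log2 -1.54), Trim59 (from 316 ± 23.6 to 109.7 ± 21.4, log2 -1.54), the secreted protein Olfml3 (from 119 ± 18.8 to 45.6 ± 10.3, log2 -1.38), Prr5, a subunit of the mTOR complex that phosphorylates AKT (from 100.02 ± 20.7 to 38.6 ± 10.6, log2 -1.36), the nuclease Ankle1 (from 129 ± 20.9 to 51.8 ± 14.7, log2 -1.33) and Arhgap19 (from 202 ± 19.2 to 82 ± 15.3, log2 -1.31). In each of these 12 genes the groups did not overlap and the call held with each single library left out. Proteasome genes had a median log2 of -0.02 over 32 members, immediate early genes of -0.04 over 15 and interferon and antigen presentation genes of 0.06 over 23. The signal transducer gene Stat3 went from 1094 ± 96.3 to 1211 ± 68.7 (log2 0.15 ± 0.07, adjusted p = 0.15).

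The response was set against that of cells in which Ogt mRNA was targeted with a lentiviral hairpin for 3 days (5 shOgt and 6 shLuc libraries). Both of these groups received 10 viral particles per cell, and each experiment had its own controls. After joint normalization of all 22 libraries, the difference of the log2 fold changes passed limma's test for 2501 of 10975 genes outside the cell cycle list (22.8%), 1331 of them higher after OSMI-1 (12.1%) and 1170 lower (10.7%). Agent, time and virus differ between the experiments and cannot be told apart. Of 1309 genes that rose after OSMI-1 and were tested in both, 307 also rose after knockdown (23.5%) and 231 fell (17.6%), and of 1237 that fell 437 also fell (35.3%) and 145 rose (11.7%). Of all 10975 genes 15.6% rose and 16.9% fell after knockdown. Among 67 lysosomal genes the difference was higher for 23 and lower for 8 (knockdown median 0.14), and for proton pump genes it was higher for 10 of 17 (knockdown median 0.04). Dpp7 had a knockdown log2 fold change of -0.35 (adjusted p = 4.9e-09 for the difference).

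Actin and SRF target genes separated the experiments. Their median was 0.35 after knockdown and -0.34 after OSMI-1, and the difference was lower after OSMI-1 for 30 of 44 and higher for none. Tpm4 rose by a log2 of 0.71 after knockdown (adjusted p = 3e-12 for the difference), Ctgf by 0.61 (adjusted p = 6.1e-07), and Cnn2 stood at 0.36 (adjusted p = 8.5e-10). Matrix and adhesion genes had a knockdown median of 0.36, with 31 of 55 lower and 7 higher. Cholesterol synthesis enzymes had a knockdown median of -0.40, and the difference was higher after OSMI-1 for 17 of 20. For Hmgcs1 the knockdown log2 fold change was -1.16 (adjusted p = 4.2e-11 for the difference) and for Abca1 it was 1.09 (adjusted p = 8.7e-09). Synaptic adhesion and channel genes had a knockdown median of -0.28, with 23 of 51 higher and 1 lower, and Pcdh11x fell after knockdown (-0.92, adjusted p = 2.1e-08 for the difference). In the hexosamine pathway Gfpt2 differed too (-1.22 after knockdown, adjusted p = 5.3e-15 for the difference).

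Other lists are given beside the 22.8% of all genes for which a difference was called. The p53 list had a knockdown median of 0.51 with 1 of 27 higher and 2 lower, and Cdkn1a had a knockdown log2 fold change of 0.51 (adjusted p = 0.94 for the difference), although Btg2 rose more after knockdown (2.03, adjusted p = 5.2e-11). For amino acid and folate enzymes the knockdown median was -0.63 with 1 of 10 higher and 1 lower, and for nucleoporins -0.23 with 3 of 25 higher and 3 lower. For enzymes and nucleoporins these counts are near that share. A difference that misses the threshold does not show that the responses were equal.

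**Figure D5:**
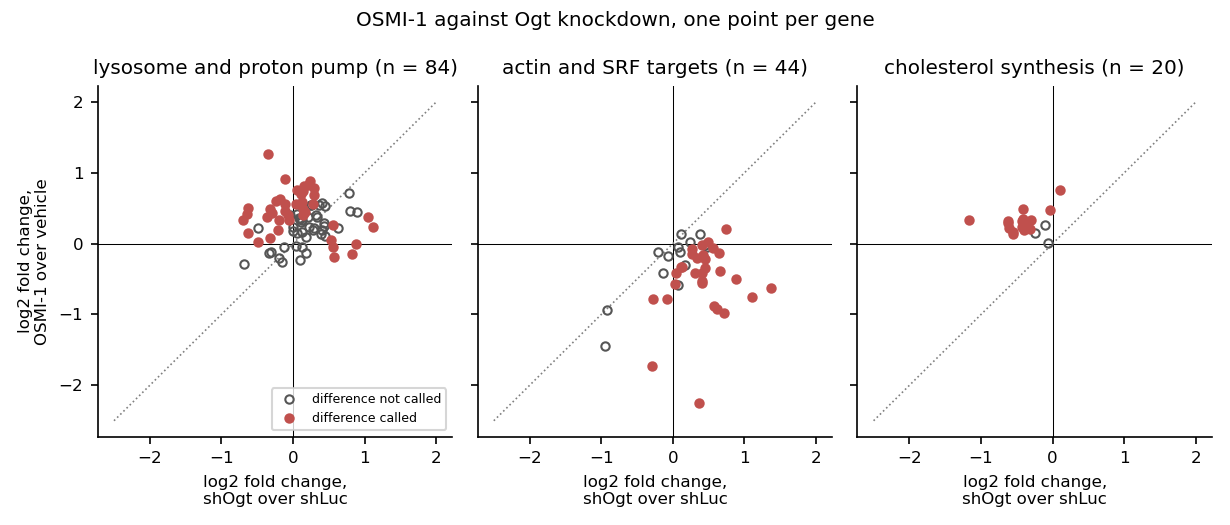
Log2 fold change after OSMI-1 (vertical axis) against log2 fold change after Ogt knockdown (horizontal axis), 1 point per gene, for 84 lysosome and proton pump genes, 44 actin and SRF target genes and 20 cholesterol synthesis enzymes; the dotted line marks equal change. Filled points passed the test of the difference, 30 of 44 in the actin panel and 17 of 20 in the cholesterol panel.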

How the data were processed

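RNA from 22 libraries of mouse neural stem cells was measured by RNA sequencing in an inhibitor and a knockdown experiment, each deposited as 1 table. Per the submitters' processing notes STAR, RSEM and DESeq2 were used, with no versions. The notes name the build hg38 although the gene symbols are of mouse, so no coordinate is taken from the tables. The labels' protocols name a strand-specific kit with poly(A) enrichment and the series design names Smart-Seq2, and which applied is not settled here. Per the file headers the authors deposited normalized counts, a signal per gene that equals reads divided by a size factor of the library. Dividing each library by its smallest step gave whole reads for 100% of values within 0.001.

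Genes with at least 10 reads in enough libraries and 15 in all were kept (11349 genes, 99.8% of reads). Values were tested as log2(normalized count + 1) with limma 3.58.1 (trend) in R 4.3.3, with the Benjamini-Hochberg adjustment over all tested genes and a threshold of 0.05. edgeR 4.0.16 and DESeq2 1.42.0 on the recovered reads were alternatives, as were other pseudocounts, filters, scalings and left-out libraries. On simulated counts for 11349 genes of this comparison, 61% of 100 genes changed 1.5-fold and 82% of 100 changed 2-fold were recovered, with 10 false calls. The simulation changed only those genes, whereas 24.8% of tested genes were called in the data. It also held no library that stood apart, so its rates may differ from those of the data. The knockdown comparison used size factors over all 22 libraries and an interaction contrast.

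The gene members and lists were chosen with earlier results of these data known. Named are Ogt, Mgea5, Malat1, the 15 largest rises and falls outside the cell cycle list (mean of at least 100 in the higher group, no overlap, called in all 11 leave-one-out fits), the 3 members of a list or role with the smallest p, and members that define its function, not all of which are reported here. Ctsa, Glb1, Fhl1, Vcl, Neat1, Mrps22, Nfil3 and Vldlr were named after their values were seen. Promoter windows came from RefSeq and gene spans from GENCODE M21, matched by symbol, with a window for 80.6% of tested genes outside the cell cycle list. Genes with near-identical copies (histones, ribosomal proteins, Hnrnpa1, Npm1, Hmgn2, Actb) are uncertain, since counting can split their reads.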

Additional observations from a re-analysis of the deposited data

Results flagged for a closer look

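In 20 of 254 groups of named gene values (7.87%) the highest or lowest library stood apart from the others of its group. Chance flags about 1 in 20 groups. OSMI-1 4 and vehicle 1 were the library that stood apart in 5 groups each, vehicle 2, vehicle 6 and OSMI-1 5 in 2 each, and vehicle 3, vehicle 5, OSMI-1 1 and OSMI-1 6 in 1 each. All values are normalized counts.

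In OSMI-1 4, Synpr (58.5), Srsf3 (777), Hmgcs1 (4159) and Sox2 (37.4) were the lowest of the treated libraries, and Nup62 (562) was the highest. Vehicle 1 was the highest vehicle library for Ankrd12 (104), Renbp (179.7) and Sox2 (87.8) and the lowest for Pde1c (116) and Trp53cor1 (54.1). The value of Renbp in vehicle 1 lay inside the OSMI-1 range, which is why the groups of that gene overlapped. In vehicle 2, Npc2 was the highest at 1257 and Ppt1 the lowest at 1141. In vehicle 6, Uap1l1 (283) and Ftl1 (18759) were the highest of their group and still below every OSMI-1 library. OSMI-1 5 had the lowest treated values of Btg2 (471) and Srebf2 (421). Hist2h2aa1 was lowest in OSMI-1 1 (315) and Srf highest in OSMI-1 6 (53.8). Among vehicle libraries, Tef was highest in vehicle 3 (158) and Phgdh in vehicle 5 (6228).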

How the results depend on the processing

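The number of genes called outside the cell cycle list (2557) was 1454 at an adjusted p of 0.01, with 748 higher and 706 lower. With each library left out in turn it was 2176 to 2424, with 1119 to 1265 higher and 1057 to 1163 lower, and without the 3 libraries that stood apart it was 1950. Other pseudocounts, filters, scalings, edgeR, DESeq2, the Rn45s share as a covariate and thinning of OSMI-1 4 gave 2283 to 2751. The number of genes whose response differed from the knockdown (2501) was 2194 to 2544 with each library left out, 2482 with edgeR and 2476 with TMM factors. Of 2496 counts of list members over 24 alternatives, 2270 were within 1.5 times the reported count. Of 118 named genes that were called, 114 kept call and direction in every alternative fit at 0.05, the exceptions being Neat1, Nfil3, Mrps22 and Vldlr.

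Changes of sign were seen in 5 named genes that were not called. Without the 3 libraries the log2 fold change of Mgea5 was -0.042, that of Gfpt1 0.0070, that of Cspg4 -0.034 and that of Sox2 0.16. With each library left out in turn, Gfpt1 was at -0.15 to 0.029, Cspg4 at -0.019 to 0.093, Sox2 at -0.13 to 0.078 and Srf at -0.15 to 0.16. Srf was at -0.011 with edgeR, -0.0062 with DESeq2 and -0.075 with OSMI-1 4 thinned. The cause was not tested.

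Libraries that share a replicate number did not deviate together (correlations -0.0165, -0.0173, 0.0052, -0.142 and 0.0608), and no OSMI-1 library correlated best with its own number, so the numbers were not taken as pairs. With the replicate block 2124 genes were called, 1075 higher and 1049 lower, and 2322 differed from the knockdown. The autophagy list then had 6 rising members, against 10.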
